A study of Sus scrofa with 6 samples.

Results

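Glycogen is the branched glucose store of muscle, and its turnover was described here through 9 genes: UGP2, GYG1, GYS1, GBE1, PPP1R3A, PPP1R3C, PYGM, PHKA1 and PHKG1. They were chosen by symbol from the 25322 pig genes of the expression table, and all 9 were found, each under 1 Ensembl gene ID. RNA came from longissimus dorsi, the long back muscle, of 6 healthy female Tibetan pigs, with 1 library per animal. The low altitude group was 3 pigs kept on the Chengdu plain, at 500 m on average, fed daily under experimental conditions, from a lineage bred in the lowland over several generations. The high altitude group was 3 pigs ranging freely on the Tibetan highland at 4000 m on average. Both groups are of the same breed and sex, no ages were stated, and altitude, diet, housing, place and lineage history cannot be told apart.

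A muscle fibre builds glycogen from UDP-glucose on a protein primer, lengthens and branches the chains, and releases glucose phosphate from them during contraction. Synthesis and breakdown are switched in opposite senses by phosphorylation. Phosphorylase kinase activates the phosphorylase, while protein phosphatase 1, held on the particle by PPP1R3 targeting subunits, reverses this and activates the synthase. Inherited changes in this pathway are well known in pigs, where variants of PRKAG3 and PHKG1 raise muscle glycogen and lower meat quality.

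Levels are FPKM, which corrects a fragment count for the length of the gene and the sequencing of the library. Comparisons between genes hold only as far as each listed ID covers its transcribed gene, which could not be checked here. The FPKM totals were 506611 to 566907 in the low altitude libraries and 526368 to 571855 in the high altitude libraries, and each library had 9278 to 10100 genes at 1 FPKM or more. Read totals cannot be had from FPKM, so depth is unknown and counting intervals are left out. Fast muscle transcripts were abundant in every library, with MYL11, a fast myosin light chain, at 14390 to 16308 FPKM at low and 14642 to 17808 FPKM at high altitude. The skeletal actin gene ACTA1 is listed at 35618 FPKM in low altitude library 3, at 34168 FPKM in high altitude library 2 and at 0 in all other libraries. These values are part of the FPKM totals given above. A 0 in this table therefore need not mean absence, and none of the 9 glycogen genes was at 0 in any library. High altitude library 1 stood apart in several markers. The 4 slow fibre markers paired with an ID (of 9 listed) summed to 3106 to 4707 FPKM at low altitude, and at high altitude to 10493 FPKM in library 1 and to 2751 and 6874 FPKM in libraries 2 and 3. The 5 fibroblast and matrix markers paired with an ID (of 6 listed) summed to 688 to 1067 FPKM at low altitude, and at high altitude to 246 FPKM in library 1 and to 958 and 846 FPKM in libraries 2 and 3. The sum of the 6 fast fibre markers paired with an ID (of 12 listed) was 43136 to 43959 FPKM at low and 40273 to 49066 FPKM at high altitude, with library 1 inside that range. MYL1, MYL11 and TNNC2 made up most of this sum, and none of them was lowest in high altitude library 1. ATP2A1, CASQ1 and PVALB were lowest of all 6 libraries there, at 1544, 1052 and 1.15 FPKM.

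None of the 9 genes passed the test for a difference between altitudes. In limma on log2(FPKM + 1) with Benjamini-Hochberg adjustment over 10005 tested genes, 0 of 9 were called at an adjusted p under 0.05, where 0.23% of all tested genes were called (23 genes). At an unadjusted p under 0.05, 1 of 9 passed, where 9.42% of all tested genes did. All 9 passed the filter on low values, 1 FPKM or more in at least 3 libraries. The estimates were below 0, that is lower at low altitude, for 7 of the 9 genes and for 42.3% of all tested genes. The median log2 fold change, low minus high altitude, was −0.11 over the 9 genes and 0.041 over all tested genes. The groups did not overlap for 2 of the 9, PPP1R3C and GYG1, both lower at low altitude, where groups failed to overlap in that direction in 4.8% of all tested genes and in either direction in 16.1%. Over the 6 fits that left out 1 library the number of estimates below 0 ranged from 5 of 9, without low altitude library 3 or without high altitude library 2, to 8 of 9, without high altitude library 1, and the median from −0.037 to −0.27, with 0 of 9 called in each.

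**Figure D1:**
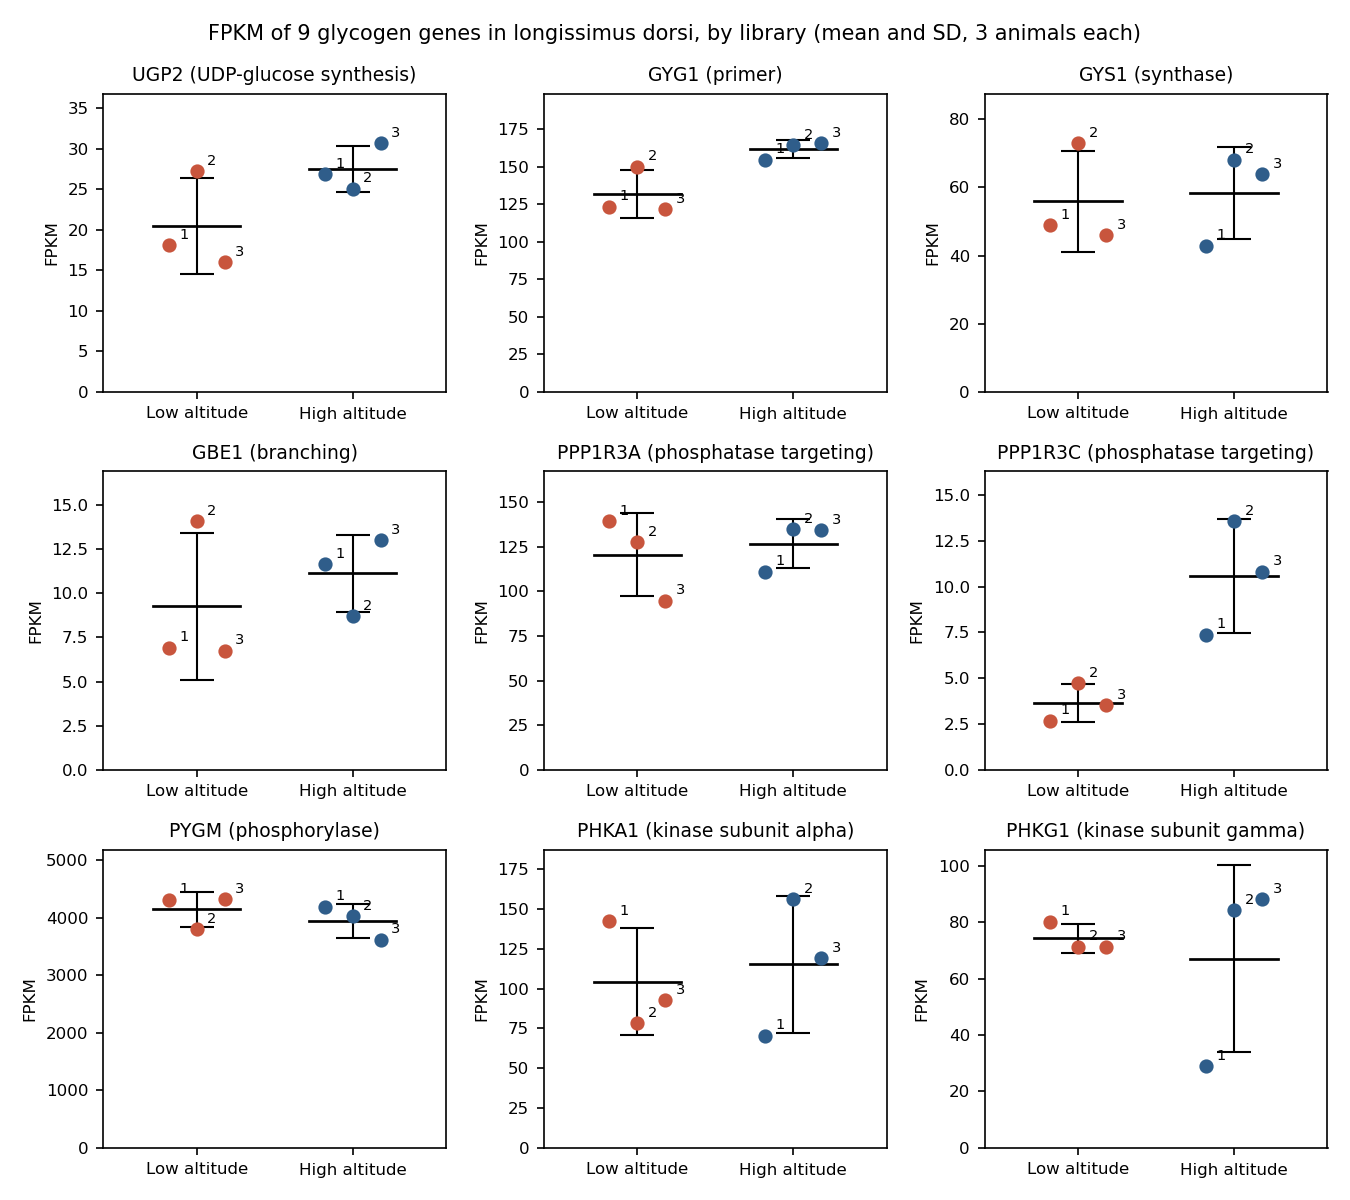
FPKM (y axis, from 0, 1 scale per panel) of the 9 glycogen genes in the low altitude and high altitude libraries. Points are libraries with their replicate number, long bars are means and whiskers are SD, 3 animals each. PPP1R3C lies at 2.69 to 4.75 FPKM at low and 7.38 to 13.6 FPKM at high altitude, GYG1 also does not overlap, and high altitude library 1 is far below the rest for PHKG1.

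Muscle phosphorylase stood far above the other 8 genes in level. Averaged over the 6 libraries, PYGM was at 4049 FPKM, followed by GYG1 at 147, PPP1R3A at 124, PHKA1 at 109.8, PHKG1 at 70.7, GYS1 at 57.1, UGP2 at 24.0, GBE1 at 10.2 and PPP1R3C at 7.12 FPKM. PYGM exceeded GYG1, PHKA1 exceeded PHKG1, GYS1 exceeded UGP2 and UGP2 exceeded GBE1 in all 6 libraries. The other neighbours in this order did not separate: GYG1 was above PPP1R3A in 5 of 6 libraries, PPP1R3A above PHKA1 in 4, PHKG1 above GYS1 in 4 and GBE1 above PPP1R3C in 5. PYGM alone made up 87.4 to 90.5% of the summed FPKM of the 9 genes at low altitude and 85.3 to 90.2% at high altitude.

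On the synthesis side, UGP2 makes UDP-glucose, the activated glucose that feeds the growing chain. It was at 18.1, 27.2 and 16.0 FPKM in low altitude libraries 1 to 3 and at 26.9, 25.1 and 30.7 FPKM in high altitude libraries 1 to 3. Low altitude libraries 1 and 3 lay below every high altitude library, while low altitude library 2 lay among them. The means were 20.4 ± 5.95 (SD, n = 3) and 27.5 ± 2.86 FPKM, and the log2 fold change was −0.44 (95% interval −0.94 to 0.060, limma, Benjamini-Hochberg adjusted p = 0.577). Over the fits that left out 1 library the estimate ranged from −0.66, without low altitude library 2, to −0.29, without low altitude library 3.

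GYG1, glycogenin, glucosylates itself to form the primer on which a glycogen particle starts. Its level was 123, 149.99 and 122 FPKM in the low altitude libraries and 155, 164 and 166 FPKM in the high altitude libraries. Every low altitude library was below every high altitude one, with low altitude library 2 and high altitude library 1 the nearest pair. The means were 132 ± 15.9 and 162 ± 5.97 FPKM (SD, n = 3 each), and the log2 fold change of −0.30 did not pass (95% interval −0.64 to 0.040, limma, Benjamini-Hochberg adjusted p = 0.577).

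GYS1, the muscle glycogen synthase, adds glucose units to the chain and was at 48.9, 72.9 and 45.9 FPKM at low altitude and at 42.9, 68.1 and 63.8 FPKM at high altitude. The groups overlapped throughout their range, with means of 55.9 ± 14.8 and 58.3 ± 13.5 FPKM (SD, n = 3 each). The log2 fold change was −0.06 (95% interval −0.65 to 0.53), and it was 0.013 once the library totals were made equal. GBE1, which makes the branch points, was at 6.92, 14.1 and 6.75 FPKM at low altitude and at 11.6, 8.72 and 12.99 FPKM at high altitude (log2 fold change −0.30, 95% interval −0.97 to 0.38). Leaving out 1 low altitude library moved the GBE1 estimate to −0.15 (library 1), −0.61 (library 2) or −0.13 (library 3), and leaving out high altitude library 2 or 3 moved it to −0.45 or −0.19. Within the low altitude group library 2 had the highest level of each of these 4 synthesis genes, and for GYS1 and GBE1 it had the highest of all 6 libraries. The slow fibre markers also summed highest in that library within its group, at 4707 FPKM against 3126 and 3106. So did the fibroblast and matrix markers (1067 against 978 and 688 FPKM), the endothelial markers (49.8 against 35.6 and 35.2) and the smooth muscle markers (111.7 against 108.7 and 108.8). The other marker lists did not. High altitude library 1, with the highest slow fibre sum of the 6, had the lowest GYS1 level, but not the lowest UGP2, GYG1 or GBE1 level. The part of any of these markers in these levels was not tested. In RNA from whole muscle, fewer fibres of a type and less RNA per fibre cannot be told apart.

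**Figure D2:**
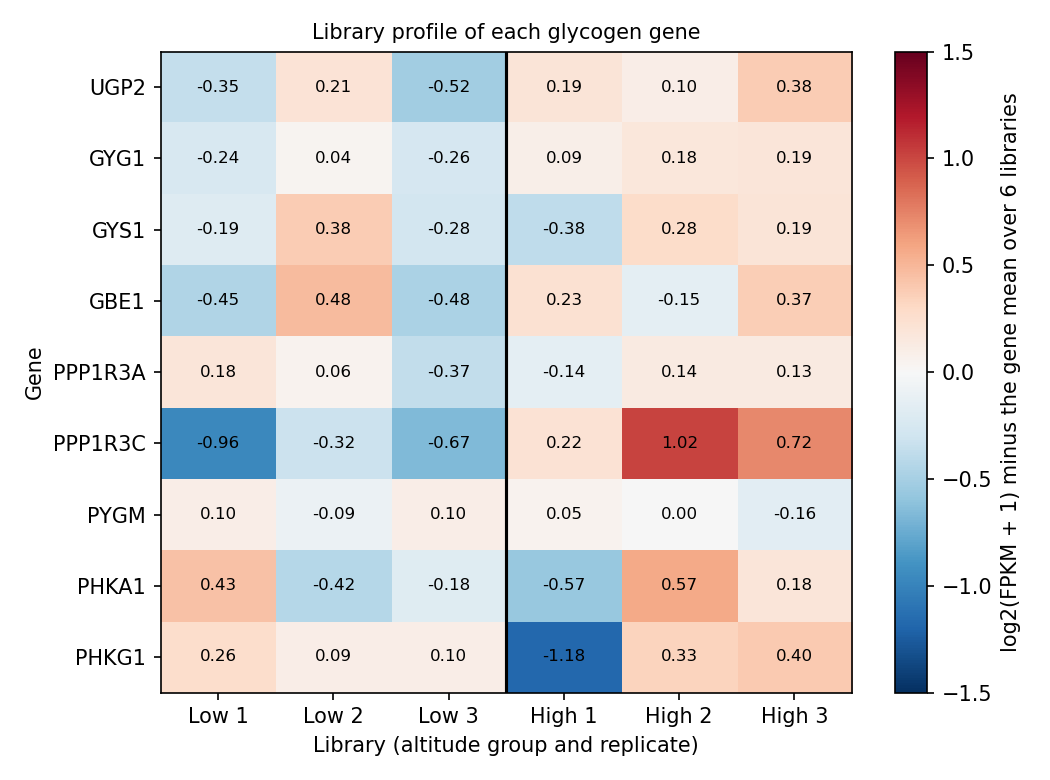
Level of each glycogen gene (rows) in each library (columns), as log2(FPKM + 1) minus the mean of the gene over the 6 libraries; blue is below and red above that mean. PPP1R3C is below 0 in the 3 low altitude columns and above 0 in the 3 high altitude columns, and PHKG1 is at −1.18 in high altitude library 1.

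PPP1R3C, also called protein targeting to glycogen, holds protein phosphatase 1 on the glycogen particle and differed most between the groups. It was at 2.69, 4.75 and 3.53 FPKM in the low altitude libraries and at 7.38, 13.6 and 10.8 FPKM in the high altitude libraries. The groups did not overlap, and the mean at low altitude, 3.66 ± 1.04 FPKM, was 0.346 times the mean at high altitude, 10.6 ± 3.10 FPKM (SD, n = 3 each). The fitted log2 fold change was −1.30 with a 95% interval of −1.89 to −0.71. Its unadjusted p of 0.00114 in limma ranked 74 among 10005 genes, and the Benjamini-Hochberg adjusted p was 0.155. Over 17 alternative fits in limma the estimate ranged from −1.52 to −1.12 and the adjusted p from 0.0502, with array weights, to 0.467, without low altitude library 3. Fat cells also express targeting subunits: the 2 adipocyte markers paired with an ID of 6 listed, PLIN1 and CIDEC, summed to 4.52 to 12.4 FPKM at low and 3.88 to 22.0 FPKM at high altitude. Neither marker was at 0, the sums overlapped between the groups, and their part in the PPP1R3C difference was not tested.

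PPP1R3A, the main glycogen-targeting subunit of striated muscle, was at 139, 128 and 94.8 FPKM at low altitude and at 111, 135 and 134 FPKM at high altitude. The groups overlapped, with means of 121 ± 23.1 and 127 ± 13.6 FPKM (SD, n = 3 each) and a log2 fold change of −0.08 (95% interval −0.53 to 0.36). Taken within each library, PPP1R3A exceeded PPP1R3C by a factor of 51.8, 26.9 and 26.8 at low altitude and of 15.1, 9.96 and 12.4 at high altitude. The log2 ratio of PPP1R3C to PPP1R3A averaged −4.71 ± 0.47 at low altitude and −3.49 ± 0.26 at high altitude (SD, n = 3 each), a difference of −1.22 with p = 0.1 in a two-sided exact permutation test. This is the smallest p that 3 against 3 libraries allow, and it was 0.4 when adjusted over the 4 ratios tested. The tested ratios are of FPKM + 1, and with a pseudocount of 0.1 the difference was −1.42 (exact permutation p = 0.1).

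The rest of the PPP1R3 family was read from a list of phosphatase and targeting genes. In it 0 of 7 tested genes were called in either direction, where 0.23% of all tested genes were. PPP1R3A gave 71.6 to 82.8% of the summed FPKM of the 6 family members in the table at low altitude and 66.6 to 74.1% at high altitude, while PPP1R3C gave 1.598 to 2.83% and 4.88 to 6.69%. PPP1R3G, another glycogen-targeting subunit, ran the other way. It was at 4.19, 5.16 and 4.33 FPKM at low altitude and at 2.80, 2.67 and 2.39 FPKM at high altitude, with no overlap, as was seen in this direction in 11.3% of all tested genes. Its log2 fold change was 0.62 (95% interval 0.31 to 0.93, limma, Benjamini-Hochberg adjusted p = 0.207). PPP1R3B, the form that prevails in liver, averaged 19.1 ± 9.10 and 26.05 ± 9.43 FPKM and PPP1R3D 8.22 ± 2.69 and 10.1 ± 0.740 FPKM at low and high altitude (SD, n = 3 each), and both overlapped. PPP1R3F was near the filter, at 0.972 ± 0.143 and 2.19 ± 1.38 FPKM. Low altitude libraries 2 and 3 were below 1 FPKM, at 0.826 and 0.979, and every high altitude library was above it. The catalytic subunits PPP1CA, PPP1CB and PPP1CC overlapped between the groups, with adjusted p of 0.747 to 0.894 in limma with Benjamini-Hochberg adjustment.

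**Figure D3:**
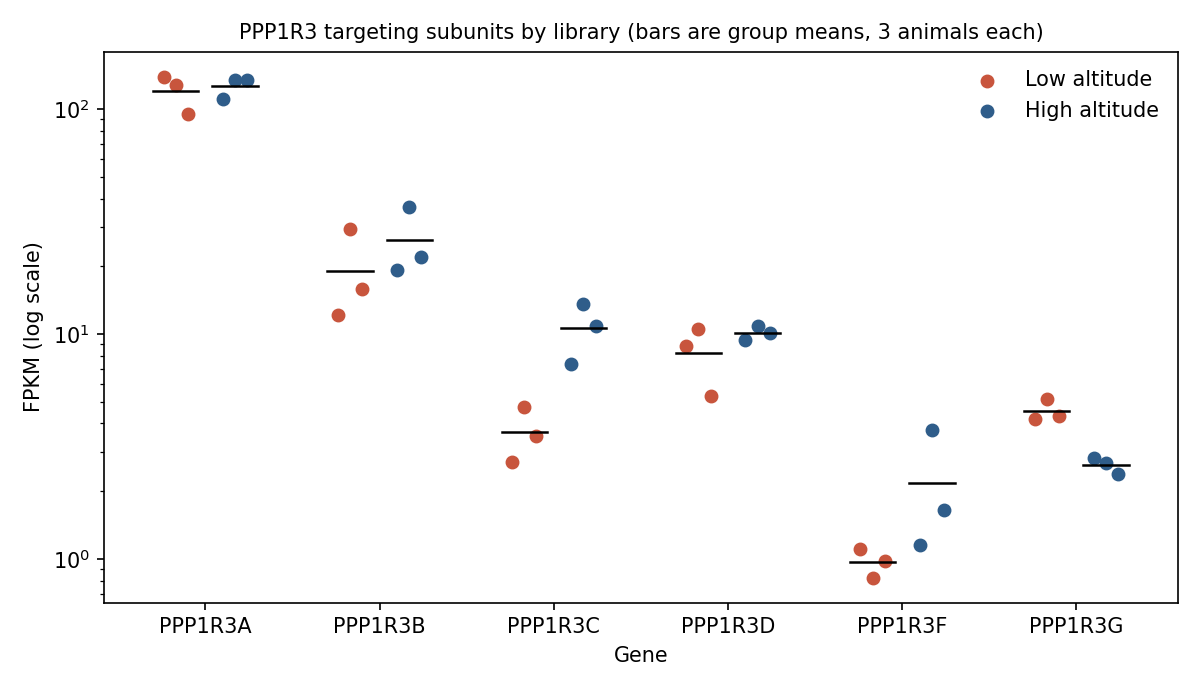
FPKM (log scale) of 6 PPP1R3 targeting subunits in the low altitude and high altitude libraries; points are libraries and bars are means of 3 animals. PPP1R3A is the highest in all libraries. PPP1R3C and PPP1R3F are lower and PPP1R3G higher at low altitude without overlap, and none of these differences passed the adjusted threshold. For PPP1R3F the nearest libraries are at 1.11 FPKM (low altitude library 1) and 1.16 FPKM (high altitude library 1). Of all tested genes, 4.8% were lower and 11.3% higher at low altitude without overlap.

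On the breakdown side, PYGM, the muscle glycogen phosphorylase that releases glucose phosphate from chain ends, was at 4318, 3803 and 4323 FPKM at low altitude and at 4195, 4036 and 3619 FPKM at high altitude. The groups overlapped, the means were 4148 ± 299 and 3950.04 ± 297 FPKM (SD, n = 3 each), and the log2 fold change was 0.07 (95% interval −0.22 to 0.37, limma, Benjamini-Hochberg adjusted p = 0.902). In this fit the interval holds no change larger than 0.37 on the log2 scale in either direction. The bound depends on the scaling, and the estimate was 0.15 with equal library totals and 0.16 with quantile normalization. PYGM also had the smallest spread of the 9, a within-group SD of 0.11 on the log2 scale, at percentile 10.6 of all tested genes. It made up 99.8 to 99.9% of the summed FPKM of the 3 phosphorylase genes at low and 99.7 to 99.9% at high altitude. The liver form PYGL was at 5.12 to 5.999 FPKM at low and 2.80 to 9.24 FPKM at high altitude, and the brain form PYGB was below the filter.

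For phosphorylase kinase the spread between libraries of a group was larger than the difference between the group means. With 1 library per animal, animal and library cannot be told apart, and for PHKG1 the spread came mostly from high altitude library 1. PHKG1, its catalytic subunit in muscle, was at 80.2, 71.3 and 71.3 FPKM at low altitude and at 28.9, 84.2 and 88.1 FPKM at high altitude. The low altitude libraries lay close together, whereas high altitude library 1 was below all others and the remaining high altitude libraries were above all 3 of them. The log2 fold change was 0.30 (95% interval −0.65 to 1.25) and turned to −0.21 without high altitude library 1 (limma, Benjamini-Hochberg adjusted p = 0.866 and 0.524). The within-group SD of 0.63 on the log2 scale was at percentile 95.2 of all tested genes. That library also had the highest slow fibre sum, 10493 FPKM, and the lowest fibroblast and matrix sum, 246 FPKM, and the part of either in the PHKG1 level was not tested.

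PHKA1, the regulatory subunit of the muscle enzyme, was at 142, 78.1 and 92.6 FPKM at low altitude and at 70.5, 156 and 119 FPKM at high altitude, again with high altitude library 1 lowest of the 6. The groups overlapped (log2 fold change −0.11, 95% interval −0.91 to 0.68). PHKB, the other regulatory subunit, was at 131.6 to 179 FPKM at low altitude. It was at 119, 185 and 157 FPKM in high altitude libraries 1 to 3, and was likewise lowest in library 1. GYS1, outside the kinase, was also lowest of all libraries there, at 42.9 FPKM. That library had the fewest genes at 1 FPKM or more, 9278. The share of all tested genes that were lowest in it was not taken, so the low values are not read as particular to the kinase. The muscle forms dominated their families: PHKG1 was 97.0 to 98.0% of PHKG1 and PHKG2 at low altitude and 95.3 to 97.7% at high altitude, and PHKA1 was 99.0 to 99.6% and 97.8 to 99.8% of PHKA1 and PHKA2. GYS1 was at least 99.5% of GYS1 and GYS2 in every library.

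Breakdown was set against synthesis within each library. The FPKM ratio of PYGM to GYS1 was 88.3, 52.1 and 94.2 at low altitude and 97.9, 59.3 and 56.7 at high altitude. The groups overlapped, and the log2 difference of 0.13 had p = 1.0 (two-sided exact permutation test, also 1.0 adjusted over the 4 ratios). PHKG1 to PYGM, the kinase relative to its substrate, differed by 0.23 on the log2 scale (exact permutation p = 1.0). It turned to −0.33 without high altitude library 1 (exact permutation p = 0.1, the smallest p for 3 against 2 libraries). UGP2 to GYS1 averaged −1.41 ± 0.042 at low altitude and −1.03 ± 0.37 at high altitude on the log2 scale (SD, n = 3 each), a difference of −0.38 with p = 0.3 in the same exact permutation test and 0.6 adjusted. This difference was −0.19 without high altitude library 1 (exact permutation p = 0.3). The low altitude libraries lay between −1.46 and −1.39 in this last ratio, and high altitude library 2, at −1.41, lay among them.

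**Figure D4:**
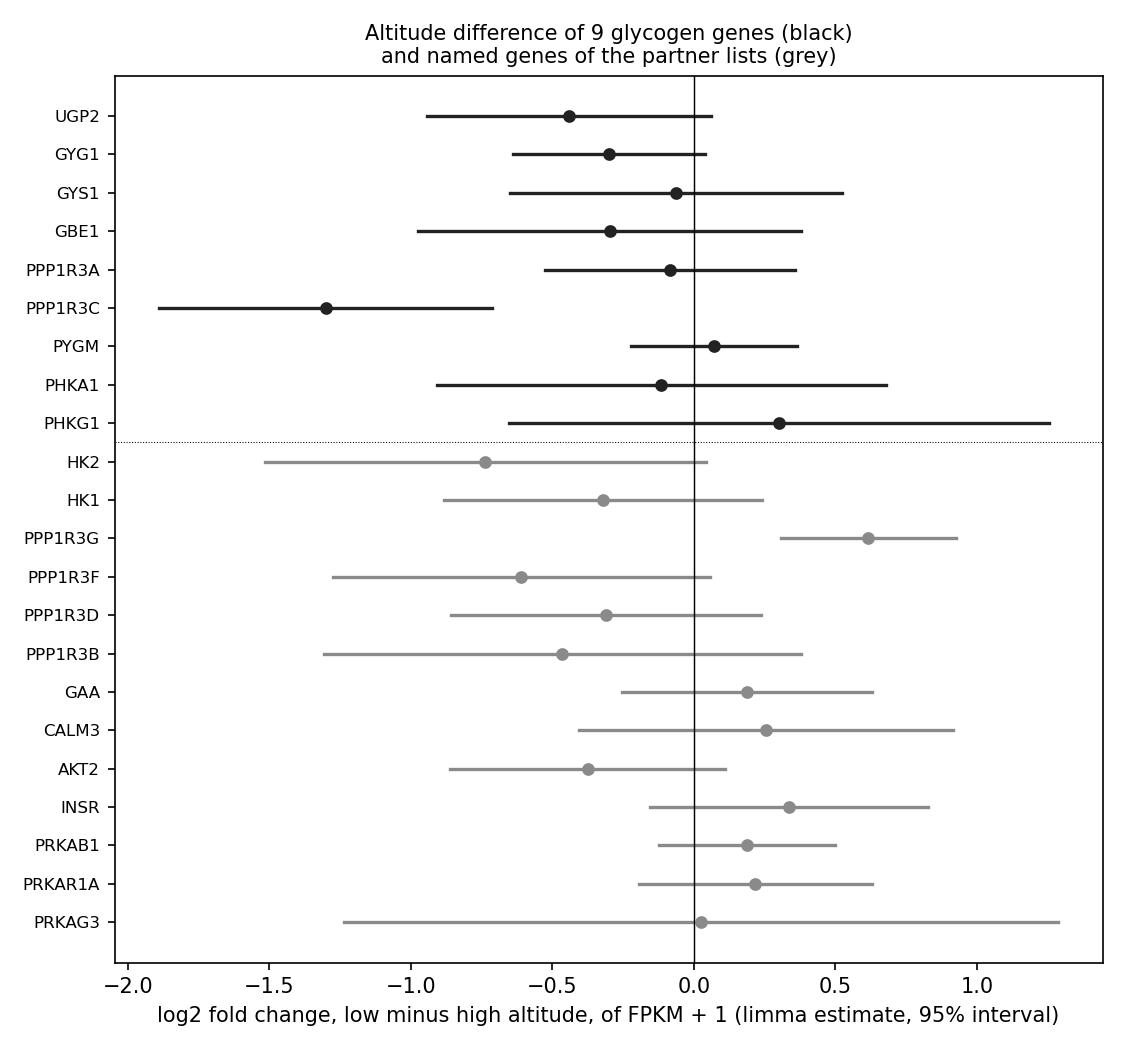
Log2 fold change of FPKM + 1, low minus high altitude (x axis), of the 9 glycogen genes (black) and the 13 named genes of the partner lists (grey). Points are limma estimates and bars are 95% intervals without correction for the number of genes; the intervals of PPP1R3C and PPP1R3G are the ones that leave out 0.

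Of 46 further genes of glycogen metabolism and its control, 34 were paired with an ID in the table and 27 were tested. Of these, 0 of the 27 were called higher or lower (limma, Benjamini-Hochberg adjusted p of 0.207 or more), where 0.23% of all tested genes were called. At an unadjusted p under 0.05, 1 of the 27 passed, PPP1R3G, where 9.42% of all tested genes did. Their estimates were above 0 for 10 and below 0 for 17, where 42.3% of all tested genes were below 0, with a median log2 fold change of −0.037, against 0.041 over all tested genes. For glucose entry and phosphorylation, 2 of 8 listed genes were tested. The hexokinase HK1 averaged 4.71 ± 1.12 and 6.22 ± 1.93 FPKM at low and high altitude (SD, n = 3 each). HK2, the form that traps glucose in insulin-sensitive tissue, had a log2 fold change of −0.74 (95% interval −1.52 to 0.044), with high altitude library 1 highest at 14.3 FPKM, and it was −0.41 without that library.

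In the breakdown list 0 of 6 tested genes were called, where 0.23% of all tested genes were. CALM3, which encodes calmodulin, the calcium sensor that is also a subunit of phosphorylase kinase, was at 167 to 179 FPKM at low altitude and at 90.2, 188 and 177 FPKM at high altitude, again lowest in library 1 of that group. The lysosomal glucosidase GAA, which degrades glycogen inside lysosomes, averaged 8.23 ± 1.07 and 7.17 ± 1.58 FPKM at low and high altitude (SD, n = 3 each).

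Signalling genes showed 0 of 12 called, where 0.23% of all tested genes were. PRKAG3, the AMP-activated kinase subunit of glycolytic muscle, was at 6.20, 4.65 and 4.57 FPKM at low altitude and at 1.38, 6.67 and 10.8 FPKM at high altitude. The high altitude libraries spread on both sides of the low altitude ones, the log2 fold change was 0.025 (95% interval −1.24 to 1.29), and it was −0.64 without high altitude library 1. AKT2, a kinase that carries the insulin signal to the synthase, was at 27.95, 35.6 and 29.2 FPKM at low and at 30.4, 45.7 and 46.7 FPKM at high altitude (log2 fold change −0.38, 95% interval −0.86 to 0.11). The insulin receptor INSR averaged 3.97 ± 0.841 and 2.96 ± 0.915 FPKM, the kinase subunit PRKAB1 2.60 ± 0.239 and 2.16 ± 0.284 FPKM, and PRKAR1A, a regulatory subunit of the cyclic AMP-dependent kinase, 62.5 ± 2.10 and 54.3 ± 10.3 FPKM at low and high altitude (SD, n = 3 each). The synthase kinases GSK3A and GSK3B had log2 fold changes of 0.047 and −0.016.

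The genes whose library profile lay closest to that of PPP1R3C were taken by the mean absolute difference of centred log2(FPKM + 1) values over the 6 libraries. They were HTATIP2 (0.170), KDR (0.202), PLIN5 (0.206), MPV17L2 (0.221) and TSPO (0.236). HTATIP2 averaged 4.45 ± 0.992 and 11.2 ± 2.34 FPKM and PLIN5, a lipid droplet coat protein, 2.42 ± 0.638 and 6.49 ± 0.140 FPKM at low and high altitude (SD, n = 3 each). MPV17L2 averaged 2.76 ± 0.575 and 5.89 ± 1.68 FPKM. KDR, the main receptor for vascular endothelial growth factor on endothelium, was at 1.90, 4.75 and 1.97 FPKM at low and 5.74, 7.69 and 7.22 FPKM at high altitude. The other endothelial markers paired with an ID did not share this: PECAM1 averaged 34.7 ± 6.33 and 30.6 ± 9.52 FPKM and TEK 2.63 ± 0.411 and 3.02 ± 0.227 FPKM at low and high altitude (SD, n = 3 each), and both overlapped. TSPO, a protein of the outer mitochondrial membrane, was at 4.99, 8.24 and 11.5 FPKM at low and 12.0, 19.8 and 20.5 FPKM at high altitude. In all 5, as in PPP1R3C, the groups did not overlap, and none passed the test over all genes, with limma and Benjamini-Hochberg adjusted p-values of 0.0732 for PLIN5, 0.115 for HTATIP2, 0.282 for MPV17L2, 0.303 for KDR and 0.375 for TSPO. The 5 genes were picked from all tested genes with a symbol for this likeness over 6 libraries, so their agreement is a description.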

How the data were processed

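The authors deposited FPKM values for 25322 Ensembl gene IDs in 6 libraries. Libraries were strand-specific (dUTP, TruSeq kit), per the labels' protocols, and TopHat2 2.0.11 and Cufflinks 2.2.1 are named in the submitters' processing notes, with no role given. The sources used here give neither build nor annotation release, so positions are left out. Columns were matched to animals by title, and 11804 IDs took a symbol from a table of gene names. No 2 libraries were duplicates, with at most 2 identical values above an FPKM of 1 in any of 15 pairs.

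Log2(FPKM + 1) values, a pseudocount of 1, of 10005 genes that reached 1 FPKM in at least 3 libraries were tested with limma 3.58.1 (R 4.3.3, trend, two-sided, Benjamini-Hochberg adjustment over all tested genes, threshold 0.05), as low minus high altitude. Each fold change is on this scale, which understates low genes. The fit was also run on simulated data. Changes were placed there only in genes of a higher mean level than PPP1R3C, so that run does not cover PPP1R3C. Within-library ratios used exact permutation tests over 20 assignments. Alternatives were pseudocounts of 0.1 and 0.5, other filters, scalings and limma settings, a replicate block and leaving out each library. Beside the 9 genes, the text names up to 4 genes per partner list by unadjusted p, PRKAG3, and the 5 profiles nearest to the gene of smallest p. Values of PHKB, PYGL, PYGB, GSK3A, GSK3B and the PPP1C genes that fall outside this rule were added after they were seen. Of the partner lists, 2 genes are not reported here and are left out of their counts. The members, lists and ratios were chosen with earlier results of these data known. Plots used matplotlib 3.10.9 (Python 3.11.15).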

Additional observations from a re-analysis of the deposited data

How the results depend on the processing

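Over the 17 alternatives 0 of the 9 glycogen genes were called in any, and their median log2 fold change stayed below 0, from −0.29 to −0.037. When library totals were made equal the median of all tested genes was 0.10. The number of genes called in the whole table was 23, against 10 after quantile normalization, 10 by median-of-ratios scaling, 6 without a filter, 38 under limma array weights and 1 to 12 when each library was left out in turn, lowest without high altitude library 3. Some estimates changed sign, and none of these passed in either fit, and the cause was not tested. GYS1 was at 0.013 with equal totals and at −0.27 to 0.063 over the fits that left out 1 library. PHKG1 was at −0.024 with array weights and at −0.21 to 0.57 over those fits. PRKAG3 was at −0.020 with quantile normalization, −0.0026 by median ratios, −0.36 with array weights and −0.64 to 0.51 over those fits. Over the same fits PPP1R3A was at −0.20 to 0.078, PHKA1 at −0.43 to 0.14 and CALM3 at −0.083 to 0.44. The log2 ratio of PYGM to GYS1 was at −0.023 to 0.40 and that of PHKG1 to PYGM at −0.33 to 0.56 when 1 library was left out, that of UGP2 to GYS1 at −0.57 to −0.19 and that of PPP1R3C to PPP1R3A at −1.37 to −0.95. Both groups carry replicate numbers 1 to 3, but same-numbered libraries did not deviate together from their group means (r of −0.015, 0.095 and −0.14 over 10005 genes). With 3 libraries a group, this cannot settle whether they share more than a number. With the replicate number as a block 19 genes were called, and PPP1R3C had an adjusted p of 0.0749 in limma with Benjamini-Hochberg adjustment. The ratios of PPP1R3C to PPP1R3A and of UGP2 to GYS1 then had p of 0.25 and 0.5 in exact sign-flip permutation tests within the numbers. With 3 animals a group and unknown depth, differences of the size of the intervals given could not be resolved.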

Other observations

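SLC2A4, the insulin-responsive glucose transporter that feeds muscle glycogen, was listed at 0.0911, 0.131 and 0.298 FPKM in the low altitude libraries and at 0.122, 0.203 and 0.0718 FPKM in the high altitude libraries, below the filter. Skeletal muscle is known for this transporter, and whether the listed ID covers its transcribed gene could not be checked here, so these values are not read as its absence. PRKAG2, another AMP-activated kinase subunit, was at 14.0 FPKM in low altitude library 2 and at 2.36 and 3.90 FPKM in the other low altitude libraries, against 3.996 to 7.49 FPKM at high altitude. That library also had the highest GYS1 and GBE1 levels of the 6. Both genes were named after their values were seen.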
